A study of Mus musculus with 45 samples.

Results

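The left ventricle of 8-week-old mice was compared between 2 operations done within a day of birth. In 5 mice, labelled nAAC, the aorta was constricted and stayed so. In 5 others, labelled Rev-nAAC, the constriction was of a kind that can be undone. These 10 RNA-seq libraries were taken from a series of 45, in which sham-operated, nAAC and Rev-nAAC ventricles were each sampled at 4, 6 and 8 weeks, 5 libraries to a group and 9 groups in all. The comparison runs over all 15444 genes that passed a low-count filter, out of 27007 in the table. All mice are labelled wild type (WT), and the pups stayed with and were fed by their mothers. Strain, the day on which the constriction was undone and heart function are not given in the sources used here. The samples are numbered within each group, and no label says outright that each came from a different animal, so p-values measure the spread between these samples.

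Library totals lay between 34.44 and 35.46 M (mega) counts in nAAC and between 33.47 and 34.82 M in Rev-nAAC. Levels are given as CPM, counts per M counts of the library after TMM scaling, and a log2 fold change of 1 is a doubling. From Xist and Y-linked counts, nAAC held 2 female libraries (replicates 3 and 4) and 3 male ones, while Rev-nAAC held 4 female libraries and 1 male one, replicate 5. The 5 sham libraries at 8 weeks were all male. Ventricular identity was borne out by the light chain Myl2, at 6224 ± 487 CPM in nAAC and 6885 ± 803 CPM in Rev-nAAC (SD, n = 5 each).

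A pair of Rev-nAAC libraries stood apart. Replicate 5 correlated least with the other members of its group by the median (0.983, against 0.988 to 0.992 for the other 4), and at 720 of 15444 genes it lay apart from the other 4 by a gap of over 0.71 of the group's range in log2 CPM, against 68 to 321 genes for the others. With the nAAC libraries, replicate 5 correlated at 0.980 to 0.986, much as with its own group (0.977 to 0.986). The other Rev-nAAC libraries reached at most 0.979 with any nAAC library. Replicate 5 is also the only male Rev-nAAC library, so sex and library cannot be told apart here. Replicate 4 carried fat-cell transcripts: the summed level of 10 adipocyte markers was 1109 CPM there, against 540 to 633 CPM in the other Rev-nAAC libraries and 495 to 683 CPM in nAAC. The adipokine Adipoq stood at 12.7 CPM in replicate 4 and at no more than 0.118 CPM in the other 9 libraries, while the leptin gene Lep was at 0 in all 10. Replicate 4 also held the atrial transcripts Myl7 (0.254, 0.298, 0.0565 and 19.3 CPM in replicates 1 to 4) and Sln, as did nAAC replicate 5, where Myl7 was 22 CPM. Sham libraries carried it as well, with Myl7 at 0.216, 24.9, 23.9, 65.2 and 28.4 CPM in replicates 1 to 5 and Nppa, also an atrial gene, at 155, 195, 840.0, 372 and 223 CPM. The part of atrial tissue in distances from sham was not tested. Counts of 3 or more list members are also given without a library where leaving it out moved them by over 1.5 times.

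A narrowed aorta forces the ventricle to eject against high pressure. Heart muscle cells answer by growing and by turning genes of the fetal ventricle back on, among them natriuretic peptides and the slow myosin heavy chain, while fibroblasts lay down matrix and fuel use moves from fatty acids towards glucose. When the load is lifted this program can recede, which is called reverse remodelling, and how far each branch recedes differs between genes and models. The comparison asks which transcripts of the constricted ventricle differ once the constriction is reversible.

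Between Rev-nAAC and nAAC, 5083 genes changed (edgeR quasi-likelihood test, adjusted p under 0.05), which is 32.9% of all genes tested. Of these, 2612 were higher in Rev-nAAC (16.9%) and 2471 lower (16.0%), and at 2-fold or more there were 573 higher and 761 lower. The median log2 fold change of all genes was 0.03. For 3117 genes (20.2%) the 5 values of one group did not overlap those of the other, with Rev-nAAC above for 1587 (10.3%) and below for 1530 (9.91%). The lists with the largest share of falls held collagens, activated fibroblast genes, matricellular genes and stress cytoskeleton, and those with the largest share of rises held fatty acid, citric acid cycle and respiratory chain genes.

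**Figure D1:**
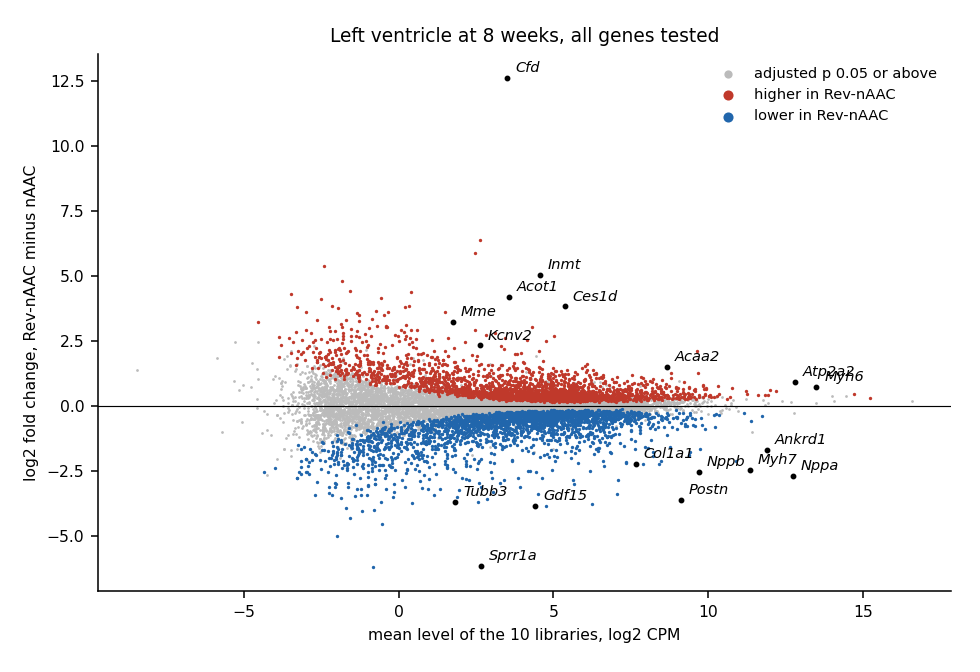
Each point is a gene, placed by its mean level over the 10 libraries (log2 CPM) and by its log2 fold change, Rev-nAAC minus nAAC; red and blue points passed the test (adjusted p under 0.05). Sprr1a, Gdf15, Tubb3 and Postn lie lowest among the labelled genes, and Inmt, Acot1, Ces1d and Mme are among the highest; the position of Cfd comes from 1 library, Rev-nAAC replicate 4.

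Of the 26 genes of the natriuretic peptide and stress program tested, 16 were lower in Rev-nAAC and 2 higher, with a median log2 fold change of -0.83. Promoters of 6 load genes, 4 of this list with Krt8 and Postn, are shown first, as the 250 bases upstream of the outermost RefSeq start of each gene (GRCm38.p6), because Nppa, Nppb, Ankrd1, Krt8, Gdf15 and Postn fell together. Capitals mark matches on either strand to 4 motifs that were searched for: CATTCC (the MCAT element read by TEAD factors), GATAA (GATA factors), TGANTCA (AP-1) and the CArG box of serum response factor. The windows are Nppa chr4:148000472-148000721 (+ strand), Nppb chr4:147985650-147985899 (+), Ankrd1 chr19:36119845-36120094 (-), Krt8 chr15:102004343-102004592 (-), Gdf15 chr8:70632457-70632706 (-) and Postn chr3:54359017-54359266 (+).
Nppa: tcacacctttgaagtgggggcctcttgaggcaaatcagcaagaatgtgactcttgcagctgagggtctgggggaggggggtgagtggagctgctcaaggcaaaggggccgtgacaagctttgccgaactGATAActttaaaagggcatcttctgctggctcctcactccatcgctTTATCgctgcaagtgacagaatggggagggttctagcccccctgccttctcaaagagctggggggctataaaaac
Nppb: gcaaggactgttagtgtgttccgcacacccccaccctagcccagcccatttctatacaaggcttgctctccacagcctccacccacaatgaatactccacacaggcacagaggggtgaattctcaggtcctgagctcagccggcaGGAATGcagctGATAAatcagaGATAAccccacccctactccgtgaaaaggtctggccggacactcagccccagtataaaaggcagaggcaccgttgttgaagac
Ankrd1: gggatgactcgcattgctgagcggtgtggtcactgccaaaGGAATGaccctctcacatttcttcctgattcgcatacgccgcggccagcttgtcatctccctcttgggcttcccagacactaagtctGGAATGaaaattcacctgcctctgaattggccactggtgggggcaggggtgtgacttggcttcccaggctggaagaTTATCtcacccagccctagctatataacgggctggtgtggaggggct
Krt8: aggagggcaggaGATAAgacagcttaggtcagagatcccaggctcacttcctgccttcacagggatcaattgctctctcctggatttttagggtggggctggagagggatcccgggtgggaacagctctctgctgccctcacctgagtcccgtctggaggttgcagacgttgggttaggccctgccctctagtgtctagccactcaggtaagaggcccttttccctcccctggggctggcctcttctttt
Gdf15: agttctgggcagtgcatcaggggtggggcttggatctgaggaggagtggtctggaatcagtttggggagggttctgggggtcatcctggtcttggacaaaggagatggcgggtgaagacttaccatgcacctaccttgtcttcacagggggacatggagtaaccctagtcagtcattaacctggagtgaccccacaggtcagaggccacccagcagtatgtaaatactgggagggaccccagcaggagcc
Postn: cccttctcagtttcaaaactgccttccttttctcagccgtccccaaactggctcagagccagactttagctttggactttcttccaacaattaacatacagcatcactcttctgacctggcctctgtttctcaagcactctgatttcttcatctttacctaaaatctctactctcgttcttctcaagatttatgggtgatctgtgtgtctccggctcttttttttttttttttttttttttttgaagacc
Nppb and Ankrd1 hold MCAT matches, 1 and 2 of them, against 12.6% of 32851 mouse promoter windows of the same length that hold at least 1. GATAA was matched at 2 places each in Nppa and Nppb and at 1 each in Ankrd1 and Krt8, against 22.6% of windows. The AP-1 and CArG letters, held by 6.75% and 1.47% of windows, were not matched in these 6 windows, and neither Gdf15 nor Postn held any of the 4 motifs. These are matches of letters and show no binding.

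Nppa, which encodes atrial natriuretic peptide, was at 13964, 12248, 11484, 11895 and 9412 CPM in nAAC replicates 1 to 5 and at 1282, 3477, 1866, 1018 and 1356 CPM in Rev-nAAC. Every nAAC value lay above every Rev-nAAC value, with replicate 2 the highest of the Rev-nAAC libraries. The log2 fold change was -2.71 ± 0.46 (SE; adjusted p = 2.6e-05). Against sham, at 357 ± 282 CPM (SD, n = 5), Rev-nAAC was still 2.33 higher on the log2 scale (adjusted p = 0.00011). Nppb, the B-type peptide used clinically as a sign of heart failure, was at 1825, 1329, 1266, 1626 and 1124 CPM in nAAC and at 208, 217, 172, 174 and 452 CPM in Rev-nAAC. Replicate 5 was the highest Rev-nAAC library and still below every nAAC value, and the log2 fold change was -2.55 ± 0.39 (adjusted p = 6.4e-06). Its difference from sham was 0.36 ± 0.37 (adjusted p = 0.49).

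The myosin heavy chains moved in opposite directions. Myh7, the slow chain of the fetal ventricle, was at 6149, 2624, 2829, 5068 and 5309.7 CPM in nAAC and 876, 904, 726, 1158 and 269 CPM in Rev-nAAC, and the groups did not overlap. It fell by 2.48 ± 0.51 on the log2 scale (adjusted p = 0.00028), to a level that differed from sham by 0.02 ± 0.48 (adjusted p = 0.98). Myh6, the fast chain of the adult mouse heart, was at 7588, 8184, 11215, 6954 and 9557 CPM in nAAC and 14184, 16550.0, 14324, 13185 and 13997 CPM in Rev-nAAC. Again the groups did not overlap, and the rise was 0.73 ± 0.17 (adjusted p = 0.0011), leaving Rev-nAAC 0.43 below sham (adjusted p = 0.046).

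Other genes of the natriuretic peptide and stress list fell beside them. Ankrd1, a titin-associated repressor in the heart muscle nucleus and sarcomere, was at 6517, 5740.2, 5354, 6681 and 4832 CPM in nAAC and 1895, 2451, 2067, 763 and 1830.3 CPM in Rev-nAAC, with replicate 4 the lowest and no overlap. Its log2 fold change was -1.69 ± 0.33 (adjusted p = 0.00016), and it stayed 1.21 above sham (adjusted p = 0.0036). Xirp2, an actin-binding protein of the intercalated disc, had the second smallest p of this list after Uchl1. It was at 3838, 2967, 2754, 3533 and 2472 CPM in nAAC and 670.4, 677, 699, 549 and 991 CPM in Rev-nAAC, a change of -2.12 ± 0.23 (adjusted p = 1.2e-08) to a level 0.35 from sham (adjusted p = 0.22). Uchl1, a deubiquitinase, was tight in both groups, with 37.5 ± 2.23 CPM in nAAC and 9.46 ± 1.41 CPM in Rev-nAAC (SD, n = 5), and fell by 1.99 on the log2 scale (adjusted p = 1.1e-08).

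The steepest fall of a gene above 2 CPM was that of Sprr1a, a small proline-rich protein induced in stressed heart muscle. It was at 22.4, 6.36, 8.63, 17.3 and 7.27 CPM in nAAC and at 0.0565, 0.565, 0.0565, 0.0285 and 0.147 CPM in Rev-nAAC, where replicate 2 was the highest. The log2 fold change was -6.17 ± 0.80 (adjusted p = 4.7e-07). Gdf15, a circulating stress hormone, was at 46.8, 40.1, 23, 64.9 and 24.6 CPM in nAAC and 1.81, 2.56, 1.3, 1.03 and 7.22 CPM in Rev-nAAC. It fell by 3.84 ± 0.53 (adjusted p = 1.5e-06), with replicate 5 the highest of its group, and remained 2.50 above sham (adjusted p = 0.0024), where it averaged 0.484 ± 0.201 CPM (SD, n = 5). Acta1, the skeletal actin of the stressed heart, did not pass: its values of 3153, 4583, 3699.6, 3816 and 3083 CPM in nAAC and 1597, 1044, 969, 1804 and 3673 CPM in Rev-nAAC overlapped through replicate 5 (log2 fold change -1.01 ± 0.46, adjusted p = 0.087). Without replicate 5 it passed, at -1.44 (adjusted p = 0.018). In all it passed under 5 of 19 alternative fits.

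**Figure D2:**
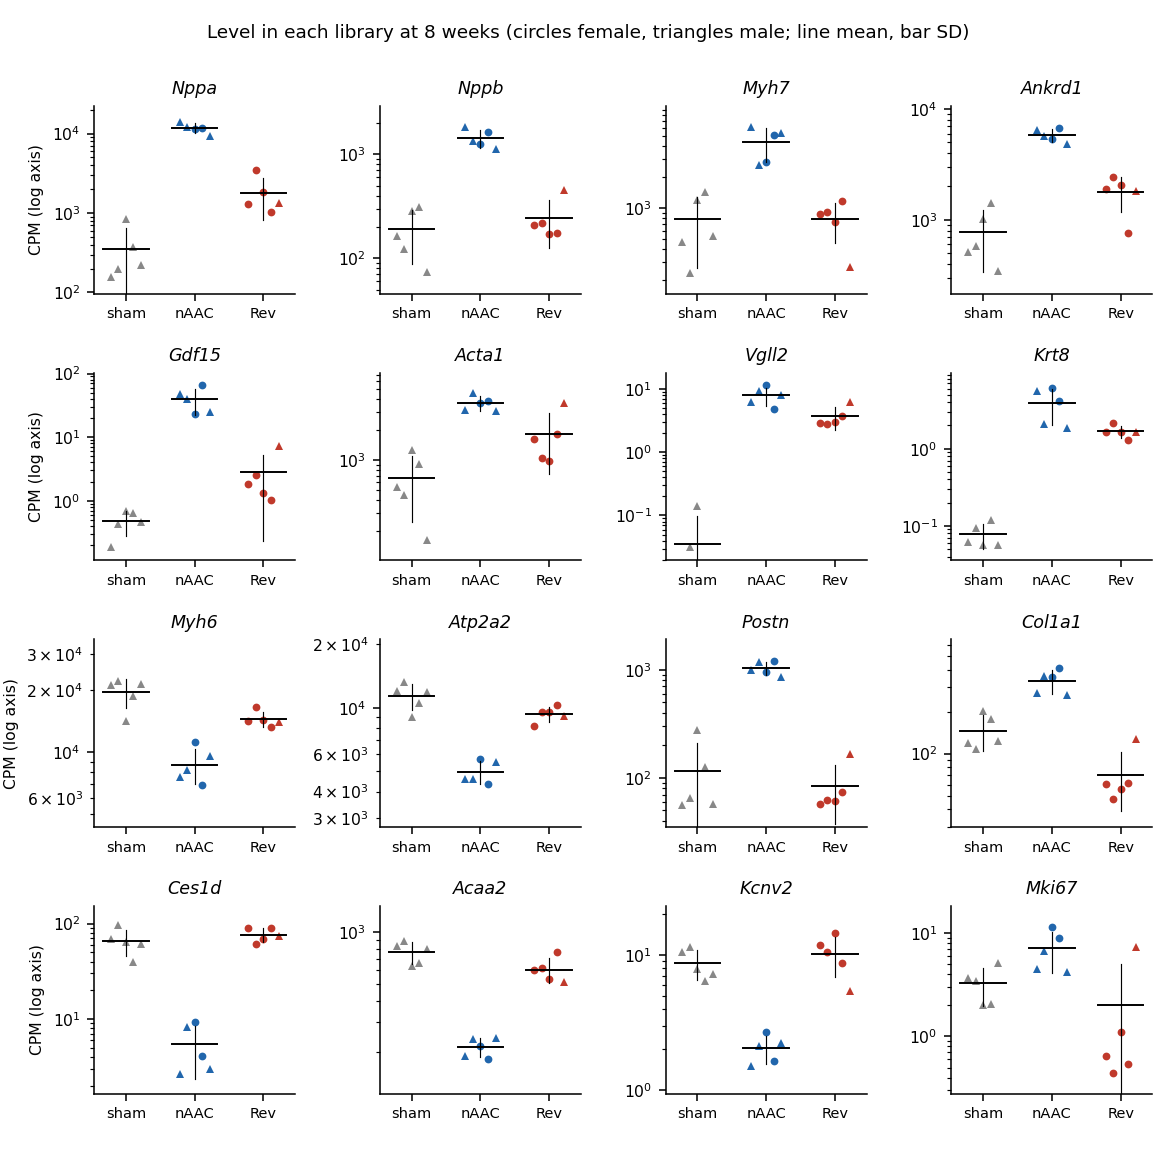
CPM on a log axis in each sham, nAAC and Rev-nAAC library at 8 weeks, with circles for female and triangles for male libraries, lines for means and bars for SD (n = 5); sham libraries with 0 counts of Vgll2 cannot be drawn. For Nppa and Gdf15 the Rev-nAAC libraries lie between the other groups, for Vgll2 and Krt8 they lie above sham and overlap nAAC, for Myh7, Ces1d and Kcnv2 they overlap the sham range, and for Mki67 replicate 5 lies among the nAAC values.

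Of 20 keratin, tubulin and cytoskeletal genes, 16 were lower and 0 higher (median log2 fold change -0.68). Tubb3, the tubulin of neurons, was at 7.95, 5.04, 6.96, 6.98 and 6.16 CPM in nAAC and 0.226, 0.268, 0.17, 0.171 and 1.68 CPM in Rev-nAAC. Replicate 5 was well above the other 4 and still below every nAAC value, and the change was -3.72 ± 0.40 (adjusted p = 1.1e-08). Rev-nAAC ended 2.42 below sham on the log2 scale (adjusted p = 6e-06). The more abundant Tuba1b, Tubb2a and Map1b, a microtubule-binding protein, fell by 0.89, 1.03 and 1.30 on the same scale. Reads of near-identical tubulin copies may be split between them, so the single tubulin values are uncertain.

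The epithelial keratins fell and remained above sham. Krt18 was at 24.5, 14, 21.6, 26.9 and 14.9 CPM in nAAC and 4.77, 8.45, 3.5, 2.99 and 3.48 CPM in Rev-nAAC, a change of -2.14 ± 0.44 (adjusted p = 0.00031), and stood 3.49 above sham on the log2 scale (adjusted p = 8.2e-06). Its partner Krt8 was at 5.63, 2.09, 6.06, 4.15 and 1.87 CPM and 1.64, 2.14, 1.67, 1.31 and 1.65 CPM. The Krt8 groups overlapped, with nAAC replicates 2 and 5 inside the Rev-nAAC range, although the test passed (-1.23 ± 0.38, adjusted p = 0.011). In sham, Krt8 averaged 0.0777 ± 0.0275 CPM (SD, n = 5), so that Rev-nAAC was 4.38 higher on the log2 scale (adjusted p = 6.1e-08). A panel of 8 epicardial and mesothelial markers includes Krt8 itself, and 2 of the 8 passed the filter. The summed level of the 8 ran from 9.87 to 17.8 CPM in nAAC and from 4.63 to 13.4 CPM in Rev-nAAC. Most of that sum was Krt8 and Wt1, and the other markers were scarce. Wt1 was at 7.81, 8.26, 9.72, 13.4 and 7.95 CPM in nAAC and 4.71, 6.87, 2.94, 5.81 and 11.7 CPM in Rev-nAAC. The part of such cells in the keratin values was not tested.

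Among 15 TEAD, VGLL and YAP genes, 2 were lower and 1 higher, below the share over all genes, and 3 were lower and 2 higher without replicate 5. Vgll2, a cofactor of TEAD factors known from skeletal muscle, was at 6.22, 9.17, 11.4, 4.83 and 7.98 CPM in nAAC and 2.88, 2.77, 2.97, 3.76 and 6.25 CPM in Rev-nAAC, overlapping through replicate 5, and missed the threshold (-1.09 ± 0.44, adjusted p = 0.052). Without replicate 5 it passed, at -1.36 (adjusted p = 0.021), and it also passed without nAAC replicate 4 (adjusted p = 0.042). In all it passed under 5 of 19 alternative fits. It was nearly absent in sham, at 0, 0.0312, 0.143, 0 and 0 CPM, and Rev-nAAC remained 6.57 above it on the log2 scale (adjusted p = 2.2e-08). Ccn1, a matricellular target of YAP, fell from 128 ± 22.9 to 50.8 ± 10.5 CPM (SD, n = 5; log2 fold change -1.33 ± 0.26, adjusted p = 0.00014). Wwtr1, which encodes TAZ, fell by 0.27 (adjusted p = 0.042) and lost its call under 10 of the alternatives tried.

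The sarcomere changed less. Of 20 adult sarcomere genes, 3 were higher and 1 lower, with a median of 0.09, close to that of all genes. Beside Myh6, the cardiac troponin I gene Tnni3 rose from 1926 ± 152 to 2862 ± 208 CPM (SD, n = 5; log2 fold change 0.57 ± 0.14, adjusted p = 0.0016), and Cmya5 rose by 0.62 (adjusted p = 0.003). Mybpc3, the cardiac myosin binding protein, fell by 0.41 (adjusted p = 0.011). Of 16 fetal and slow muscle genes, 4 were lower and 1, the slow troponin T gene Tnnt1, was higher.

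More calcium handling genes rose than fell. Of 33 genes of calcium handling and the beta-adrenergic response, 12 were higher and 4 lower, with a median of 0.31. The 4 became 2 without nAAC replicate 3 or 5 and 1 without Rev-nAAC replicate 1. Atp2a2, the SERCA2a pump that refills the sarcoplasmic reticulum after each beat, was at 4608, 4579, 5743, 4348 and 5505 CPM in nAAC and 8234, 9581, 9514, 10261 and 9099.8 CPM in Rev-nAAC. The groups lay far apart, the rise was 0.91 ± 0.14 (adjusted p = 5.9e-06), and the remaining difference from sham was -0.28 ± 0.14 (adjusted p = 0.12). Its inhibitor phospholamban, Pln, rose by 0.57, the calcium-binding Hrc by 1.05, and the release channel Ryr2 by 0.64 (adjusted p = 0.00015, 6.5e-06 and 0.015). The adrenergic receptor gene Adra1b was at 7.42, 6.99, 8.58, 5.91 and 8.72 CPM in nAAC and 21.6, 25.5, 19.5, 24.8 and 12.5 CPM in Rev-nAAC, a rise of 1.47 that left it 1.08 below sham. Casq2, the calcium store of the reticulum, went the other way, from 903 ± 119 to 631 ± 54.8 CPM (SD, n = 5; -0.52 ± 0.11, adjusted p = 0.00035), and against a sham mean of 1136 ± 168 CPM both groups were low.

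Of 32 channel and gap junction genes, 17 were higher and 5 lower (median 0.51). Kcnv2, a modifier of potassium channels, was at 1.51, 2.12, 2.71, 1.63 and 2.21 CPM in nAAC and 11.9, 10.4, 14.4, 8.75 and 5.42 CPM in Rev-nAAC, without overlap (2.32 ± 0.34, adjusted p = 2.6e-06). Its Rev-nAAC level did not differ detectably from sham (0.22 ± 0.31, adjusted p = 0.61). Kcnip2 and Kcnd2, which make up the transient outward current that shapes the early action potential, rose by 1.05 and 1.42 (adjusted p = 1.3e-05 and 0.00015). Kcnip2 was then 0.07 ± 0.17 from sham, while Kcnd2 was still 1.18 below it (adjusted p = 0.79 and 0.00064). The inward rectifier subunit Kcnj3 rose from 6.08 ± 1.7 to 24.6 ± 2.15 CPM against 78.8 ± 11 CPM in sham (SD, n = 5 each). The pacemaker channel Hcn4 rose by 1.77 and stayed 1.70 below sham.

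Some members nearly absent in nAAC rose to a small part of their sham level. Clcn1, the chloride channel of skeletal muscle, was at 0, 0.11, 0.186, 0.0259 and 0.263 CPM in nAAC, 2.17, 0.922, 1.72, 0.912 and 1.56 CPM in Rev-nAAC and 8.29 ± 2.83 CPM in sham (SD, n = 5). The water channel Aqp4 was at 0, 0.11, 0.0797, 0.0259 and 0.0263 CPM in nAAC, 0.367, 0.327, 0.141, 0.541 and 0.147 CPM in Rev-nAAC and 7.6 ± 2.31 CPM in sham. Both passed the test (3.59 ± 0.74, adjusted p = 0.00027 and 2.57 ± 0.82, adjusted p = 0.014), from a few counts a library in nAAC. Rev-nAAC remained 2.50 and 4.62 below sham on the log2 scale. The potassium channel subunit Kcne4 fell by 1.66 (adjusted p = 0.00018), to a level 0.15 ± 0.33 from sham (adjusted p = 0.76).

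Matrix genes fell almost throughout. Of 23 collagen chains, 20 were lower and 1 higher (median -1.44), of 43 matricellular, elastic fibre and crosslinking genes 35 were lower and 1 higher (median -1.16; 4 higher without nAAC replicate 2 and 3 without Rev-nAAC replicate 2), and of 22 genes of activated fibroblasts 18 were lower and 0 higher (median -2.07). Postn, periostin, which activated fibroblasts secrete, was at 983, 1178, 957, 1196 and 860.4 CPM in nAAC and 56.9, 62.2, 61.4, 73.3 and 167 CPM in Rev-nAAC. Replicate 5 was the highest of its group and still far below nAAC, the change was -3.62 ± 0.51 (adjusted p = 1.8e-06), and sham averaged 116 ± 93.9 CPM (SD, n = 5). Cthrc1, another secreted product of activated fibroblasts, fell from 4.0 ± 1.55 to 0.361 ± 0.212 CPM (SD, n = 5; -3.45 ± 0.54, adjusted p = 6.6e-06). Ltbp2, a protein of elastic fibres and microfibrils, fell from 243 ± 35.5 to 23 ± 14.6 CPM (-3.40 ± 0.55, adjusted p = 1.5e-05).

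Ddah1, which breaks down an inhibitor of nitric oxide synthesis and stood in the activated fibroblast list, had the smallest p of that list. It was at 24.6, 26.7, 22.8, 27.8 and 24.8 CPM in nAAC and 4.21, 3.42, 2.71, 2.51 and 5.75 CPM in Rev-nAAC (-2.77 ± 0.23, adjusted p = 3.6e-11), and every Rev-nAAC value was below the sham mean of 8.81 ± 1.3 CPM (SD, n = 5).

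The main fibrillar collagens undershot sham as a group, though not in every Rev-nAAC library. Col1a1 was at 273, 358, 352, 413 and 262 CPM in nAAC and 60.6, 47.6, 56.2, 62 and 127 CPM in Rev-nAAC, without overlap (-2.23 ± 0.29, adjusted p = 4.2e-07), and against a sham mean of 146 ± 41.6 CPM (SD, n = 5) Rev-nAAC was lower by 1.05 on the log2 scale (adjusted p = 0.0029). Col3a1 was at 535, 585, 608, 788 and 406 CPM and 129.9, 95.5, 137, 74.2 and 232 CPM (-2.13 ± 0.31, adjusted p = 2.3e-06) and likewise ended 1.10 below sham (adjusted p = 0.0035). Timp1, an inhibitor of matrix proteases, fell by 3.34 (adjusted p = 2.2e-06), from 15.5, 16.1, 9.38, 25.3 and 8.85 CPM to 0.988, 1.07, 0.791, 2.11 and 2.48 CPM. It stood 2.26 below sham (adjusted p = 0.00024). In these 3 genes replicate 5 was the highest Rev-nAAC library. Its Col1a1 level of 127 CPM lay within the sham range of 108 to 203 CPM. Replicate 5 is the only male Rev-nAAC library and sham was all male, so sex and group cannot be told apart in these distances. Fn1, fibronectin, was at 150.4, 179, 201, 230.4 and 175 CPM in nAAC and 76, 75.5, 92.8, 104 and 93.5 CPM in Rev-nAAC (-1.08 ± 0.24, adjusted p = 0.00054). By contrast Ccn2, connective tissue growth factor, fell from 1044 ± 242 to 277 ± 85.5 CPM (SD, n = 5; -1.91 ± 0.38, adjusted p = 0.00017) and was still 1.54 above sham (adjusted p = 0.0013).

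The exceptions ran the other way. Col6a6, a chain of the beaded-filament collagen VI, was at 0.139, 0.138, 0.133, 0.208 and 0.158 CPM in nAAC and 1.27, 0.803, 0.933, 1.23 and 2.48 CPM in Rev-nAAC (3.08 ± 0.57, adjusted p = 6.9e-05), below the sham mean of 4.86 ± 1.14 CPM (SD, n = 5). Thbs2, thrombospondin 2, rose to 66.5, 50.7, 59.1 and 74.8 CPM in Rev-nAAC replicates 1 to 4, while replicate 5, at 20.8 CPM, stayed among the nAAC values of 19, 19.8, 20.7, 23.7 and 24.5 CPM (1.34 ± 0.20, adjusted p = 2.7e-06).

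General fibroblast markers were mixed. Of 7 general fibroblast markers, 2 were lower, both of them collagen genes, 2 were higher and 3 did not pass. Their summed level ran from 3357 to 5679 CPM in nAAC, from 4186 to 5267 CPM in Rev-nAAC and from 1905 to 2799 CPM in sham. Dcn, decorin, averaged 1244 ± 293 CPM in nAAC and 1548 ± 161 CPM in Rev-nAAC (0.32 ± 0.16, adjusted p = 0.14), and Pdgfra rose by 0.50 (adjusted p = 0.019). In bulk tissue, fewer cells of a type and less RNA per cell cannot be told apart.

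Of 32 matrix proteases and inhibitors 19 were lower and 2 higher, and of 32 TGF-beta and BMP genes 13 were lower and 3 higher, the latter 1 without replicate 1 of either group. Tgfb2, a ligand induced by load, was at 87.7, 58.2, 54.3, 78.5 and 45.7 CPM in nAAC and 21.8, 20.9, 20.3, 13.2 and 17.1 CPM in Rev-nAAC (-1.80 ± 0.25, adjusted p = 1e-06), 1.08 above sham (adjusted p = 0.00076). Among 17 tendon and cartilage genes 9 were lower and 1 higher. Sox9, the master regulator of cartilage, fell from 10.3 ± 2.93 to 2.44 ± 0.77 CPM (SD, n = 5; -2.07 ± 0.31, adjusted p = 3.1e-06), and the cartilage protein Comp from 238 ± 80.9 to 32.7 ± 5.96 CPM (-2.87 ± 0.59, adjusted p = 0.00029). The tendon gene Tnmd was at 4.1, 5.7, 13.2, 5.03 and 13.2 CPM in nAAC and 1.72, 0.625, 0.735, 1.99 and 3.09 CPM in Rev-nAAC (-2.33 ± 0.69, adjusted p = 0.0082). A panel of 7 markers of valve and cartilage cells includes Comp and Sox9 themselves. Its summed level ran from 220.4 to 452 CPM in nAAC and from 54.2 to 122 CPM in Rev-nAAC, and none was at 0 throughout a group. Comp made up most of the sum in nAAC, at 202, 350, 145, 289 and 206 CPM in replicates 1 to 5. The lower sum thus largely repeats the fall of Comp, and the part of such cells in this list was not tested. Wnt and Notch genes were mixed, with 7 of 30 lower and 3 higher, the latter 1 without replicate 4. Sfrp2, a secreted Wnt modulator, fell from 43.2 ± 13 to 6.23 ± 2.84 CPM (-2.79 ± 0.45, adjusted p = 1.4e-05).

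Fatty acid genes gave the most uniform rise: 34 of 37 were higher in Rev-nAAC and 0 lower, with a median of 0.80. Without replicate 4, the library with adipocyte transcripts, 32 were higher. Acaa2, the thiolase that closes each turn of mitochondrial beta-oxidation, was at 191, 240.1, 217, 184 and 243 CPM in nAAC and 603, 618, 536, 764 and 515 CPM in Rev-nAAC. The groups did not overlap, the rise was 1.5 ± 0.18 (adjusted p = 8.3e-08), and the difference from sham was -0.33 ± 0.17 (adjusted p = 0.13). Ces1d, a lipase of the carboxylesterase family, was at 2.65, 8.26, 9.22, 4.07 and 2.98 CPM in nAAC and 90, 60.9, 69.6, 89.1 and 73.6 CPM in Rev-nAAC (3.82 ± 0.35, adjusted p = 1e-09), which is 0.22 ± 0.30 from sham (adjusted p = 0.61). Steps all along the pathway rose: uptake through Cd36 by 0.69, carnitine shuttling through Slc25a20 and Cpt2 by 0.78 and 0.72, the trifunctional enzyme subunits Hadha and Hadhb by 0.76 and 0.67, and electron transfer through Etfa by 0.67.

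Within the list, some members spread widely over the Rev-nAAC libraries. Acot1, a cytosolic thioesterase that PPAR alpha switches on, was at 0.893, 1.43, 1.12, 1.25 and 1.42 CPM in nAAC and 12.6, 15.1, 13.2, 64.4 and 5.51 CPM in Rev-nAAC (4.18 ± 0.56, adjusted p = 9.3e-07), with replicate 4 the highest and replicate 5 the lowest. Pdk4, which holds pyruvate out of the citric acid cycle, was at 548, 1064, 1306, 3343 and 234 CPM in Rev-nAAC and 258, 277, 282, 345 and 349.6 CPM in nAAC (2.1 ± 0.64, adjusted p = 0.01). In both genes replicate 4 was the highest and replicate 5 the lowest Rev-nAAC library. Reads of Acot1 and its near copy Acot2 may be split. Cpt1b did not pass (-0.09 ± 0.34, adjusted p = 0.86). It was counted at about 1 CPM, and in the GENCODE vM21 annotation it lies wholly inside another gene model, Gm44502, so reads that fit both are uncertain.

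**Figure D3:**
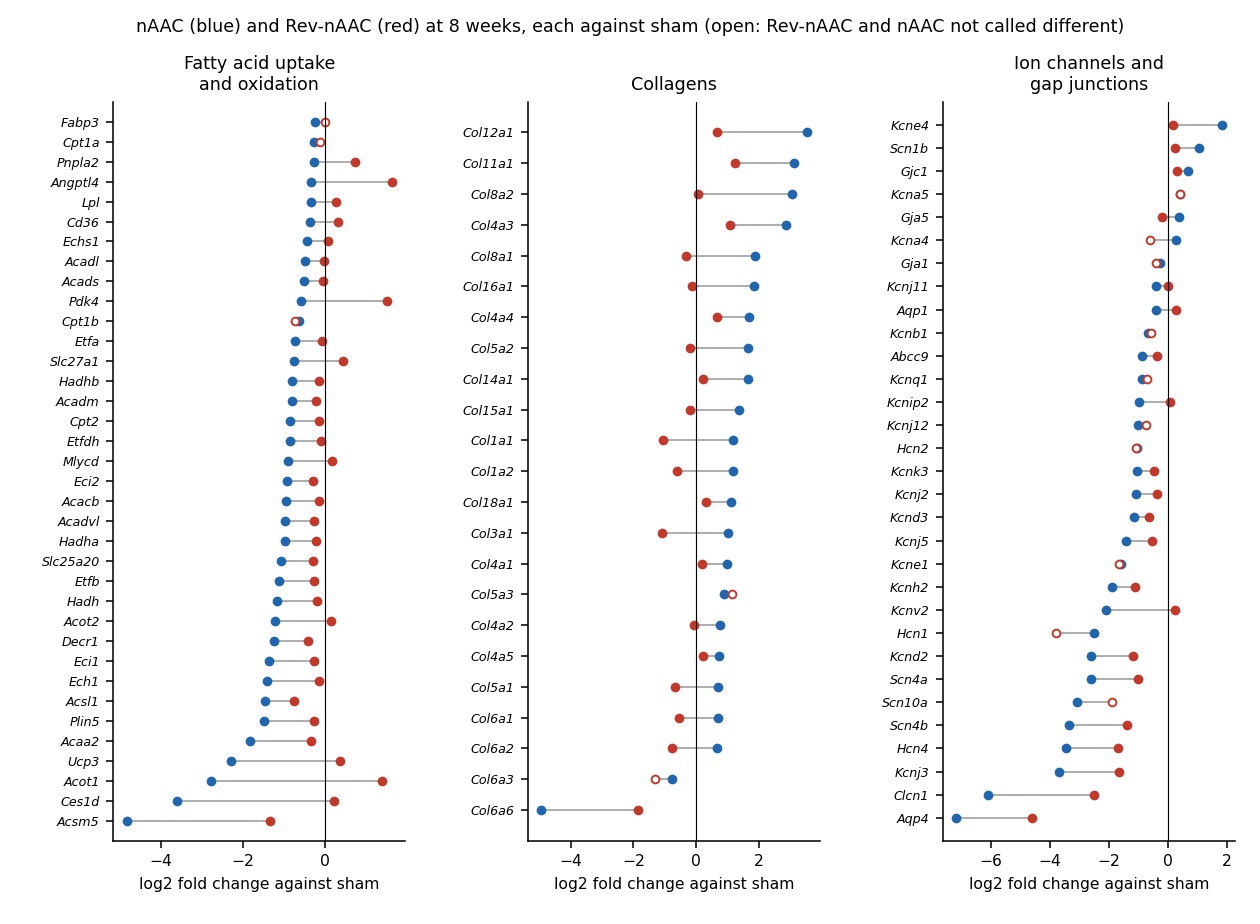
Log2 fold change against sham of nAAC (blue) and Rev-nAAC (red) at 8 weeks for tested members of 3 lists; open red circles mark genes for which Rev-nAAC and nAAC were not called different. Both groups share the sham libraries. Most fatty acid genes lie near 0 in Rev-nAAC, Col1a1 and Col3a1 lie on the far side of 0, and Clcn1, Aqp4 and Kcnj3 moved only part of the way.

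The rest of mitochondrial metabolism rose by less. Of 53 nuclear-encoded respiratory chain genes 34 were higher and 0 lower (median 0.32). This became 23 higher without replicate 4 of either group and 24 without Rev-nAAC replicate 1. Sdha, a subunit shared with the citric acid cycle, was at 741, 716, 799, 692 and 849.8 CPM in nAAC and 1176, 1265, 1137, 1271 and 1062 CPM in Rev-nAAC (0.64 ± 0.11, adjusted p = 1.4e-05). Of 26 citric acid cycle genes 19 were higher and 0 lower, and of 33 mitochondrial ribosomal protein genes 9 were higher and 0 lower. Of 13 mitochondrially encoded messages 2 were higher and 0 lower (median 0.37), a share of rises near the 16.9% over all genes. They were ND1 (0.44 ± 0.13, adjusted p = 0.0081) and CYTB (0.28 ± 0.10, adjusted p = 0.039), and CYTB lost its call under 11 of the alternatives. The share of all counts from mitochondrially encoded genes was 21.5% ± 1.45 in nAAC and 24.7% ± 1.21 in Rev-nAAC (SD, n = 5). This difference of 3.23 percentage points had a two-sided exact permutation p of 0.00794, the smallest that 5 against 5 libraries can give.

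Glucose genes split by enzyme. Of 30, 15 were lower and 8 higher. Pfkp, the platelet-type phosphofructokinase, was at 166, 139, 135, 130.4 and 136 CPM in nAAC and 67.5, 77.1, 59.4, 56.8 and 59.1 CPM in Rev-nAAC (-1.14 ± 0.12, adjusted p = 1.5e-08), and the liver type Pfkl fell by 0.81, while the muscle type Pfkm rose by 0.44. The enolase pair parted in the same way, Eno1 falling by 0.80 and the muscle form Eno3 rising by 0.67. So did the glucose transporters, with Slc2a1 falling by 0.90 and the insulin-sensitive Slc2a4 rising by 0.56, and the lactate dehydrogenases, with Ldha falling by 0.45 and Ldhb rising by 0.80. Each of these 9 changes passed the test, the largest adjusted p being 0.0023 for Pfkm. Pfkl and Ldha were near sham in nAAC (0.07 and -0.0035 on the log2 scale) and below it in Rev-nAAC (-0.74 and -0.46).

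Of 33 metabolic and cardiac regulators, 18 were higher and 2 lower. Nampt, the first enzyme of NAD salvage, was at 153, 157, 157, 167 and 137 CPM in nAAC and 304, 304, 338, 422 and 251 CPM in Rev-nAAC, without overlap (1.07 ± 0.11, adjusted p = 1.1e-08). It did not differ detectably between nAAC and sham (-0.21 ± 0.11, adjusted p = 0.12), and Rev-nAAC was 0.86 above sham (adjusted p = 1.6e-07). Nmrk2, the muscle kinase that makes NAD from nicotinamide riboside, went the other way, from 202, 149.9, 80.1, 145 and 134 CPM to 12.1, 12.1, 8.48, 5.64 and 12.7 CPM (-3.80 ± 0.75, adjusted p = 0.00018). Ppargc1a, the PGC-1 alpha coactivator of mitochondrial genes, was at 50.6, 47.3, 57.5, 46.5 and 45.5 CPM in nAAC and 66.8, 164, 77.1, 211 and 56.2 CPM in Rev-nAAC, where replicates 2 and 4 were high and replicate 5 overlapped nAAC (1.22 ± 0.33, adjusted p = 0.0049). The nuclear receptor partners Rxra and Rxrg rose by 0.50 and 0.83, and the cardiac factors Gata6 and Hand2 by 0.69 and 1.08. Of 29 amino acid and ketone genes 16 were higher and 1 lower (4 lower without replicate 5), led by the branched-chain enzyme subunit Bckdhb, which rose from 21.7 ± 0.751 to 40.5 ± 5.24 CPM (SD, n = 5; 0.90 ± 0.13, adjusted p = 2e-06).

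**Figure D4:**
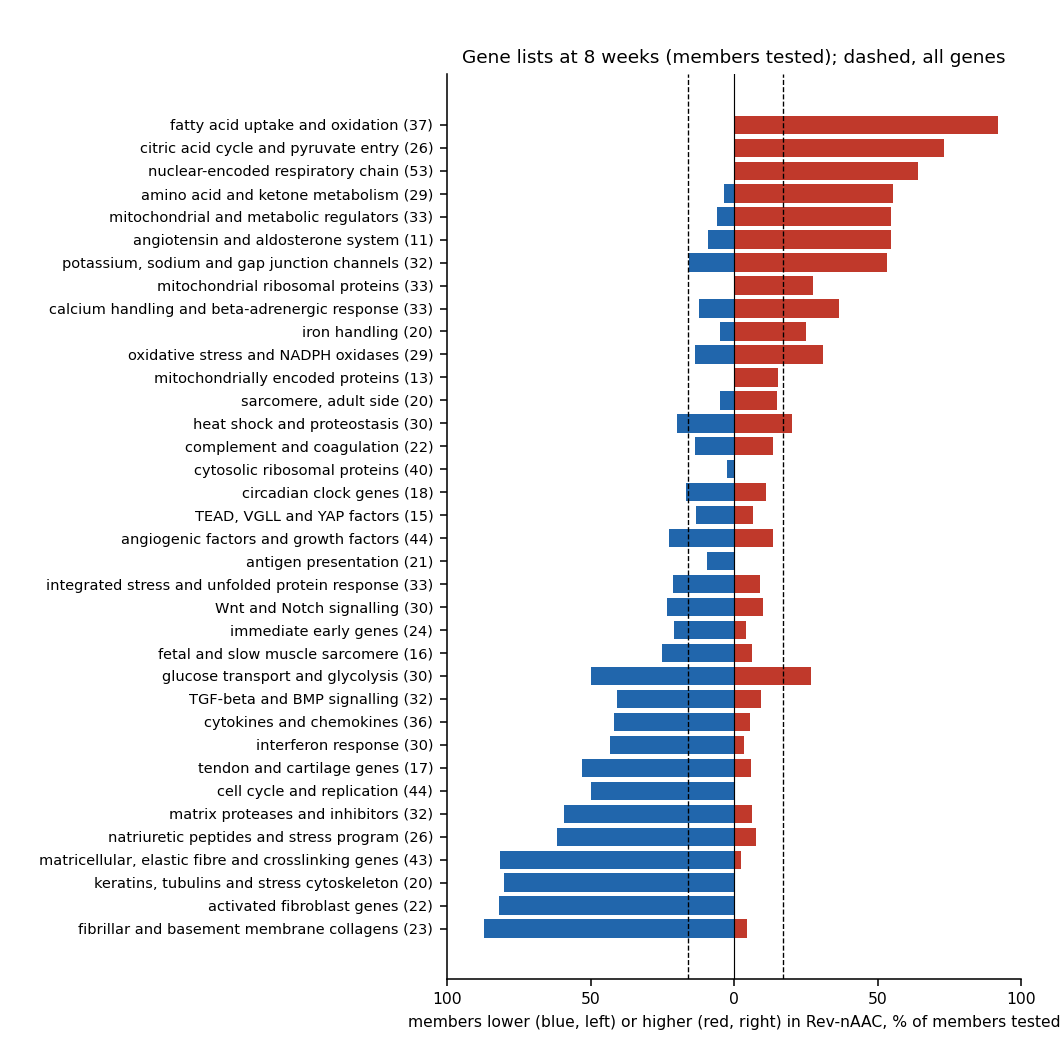
Share of each list's tested members (number in brackets) that were higher (red, to the right) or lower (blue, to the left) in Rev-nAAC at adjusted p under 0.05, in percent; dashed lines give the shares over all genes, 16.9% and 16.0%. Fatty acid genes lie farthest to the right and collagens farthest to the left, while cytosolic ribosomal proteins and antigen presentation show few calls in either direction.

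Proliferation genes were low in 4 of the 5 Rev-nAAC libraries. Of 44 cell cycle genes, 22 were lower and 0 higher (median -1.03), and 32 were lower without replicate 5. Mki67, a mark of dividing cells, was at 4.55, 6.77, 11.5, 9.05 and 4.21 CPM in nAAC and at 0.649, 0.446, 1.1 and 0.541 CPM in Rev-nAAC replicates 1 to 4, but at 7.34 CPM in replicate 5 (-1.85 ± 0.56, adjusted p = 0.011). The female nAAC libraries, replicates 3 and 4, were the highest of all 10. Ccnd1, cyclin D1, also set replicate 5 above the rest of its group, though below every nAAC value, with 114, 151, 145, 116 and 145 CPM in nAAC, 25.5, 33.1, 29.1 and 25.4 CPM in replicates 1 to 4 and 88.3 CPM in replicate 5 (-1.74 ± 0.22, adjusted p = 2.5e-07). Ccnd2, cyclin D2, did not set replicate 5 apart, at 241, 221, 273, 237 and 239.6 CPM in nAAC and 115, 132, 129.5, 103 and 140.1 CPM in Rev-nAAC (-0.97 ± 0.15, adjusted p = 7.3e-06).

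Immune and cytokine genes fell in part. Of 36 cytokine genes 15 were lower and 2 higher. Tnfrsf11b, osteoprotegerin, was at 4.46, 3.61, 4.3, 5.97 and 4.48 CPM in nAAC and 0.593, 0.446, 0.396, 0.399 and 0.619 CPM in Rev-nAAC (-3.21 ± 0.57, adjusted p = 4.1e-05). It did not differ detectably from sham in Rev-nAAC (adjusted p = 0.79). Of 30 interferon response genes 13 were lower and 1 higher, falling to 8 lower without nAAC replicate 1 or Rev-nAAC replicate 2, 3 or 4 and to 5 without nAAC replicate 4, and rising to 17 without Rev-nAAC replicate 5. In female libraries alone the median log2 fold changes of the cytokine and interferon lists were -0.88 and -0.86. In male libraries alone, with 1 Rev-nAAC library, replicate 5, they were 0.002 and 0.076. Sex and library cannot be told apart there. Of 21 antigen presentation genes 2 were lower, under the share over all genes.

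Markers of recruited monocytes and macrophages were lower at 4 of 8 tested, with a summed level of 16.9 to 67.4 CPM in nAAC and 9.28 to 21.3 CPM in Rev-nAAC. The lower ones included Ccr2, the receptor that draws monocytes in, at 4.97, 3.58, 1.25, 5.68 and 2.5 CPM in nAAC and 2.03, 0.536, 1.53, 0.769 and 0.943 CPM in Rev-nAAC, with overlap (-1.62 ± 0.40, adjusted p = 0.0016). Spp1, osteopontin, was at 21.9, 20.3, 8.29, 26.1 and 15.1 CPM and 1.89, 1.84, 0.735, 6.21 and 2.09 CPM, without overlap (-2.84 ± 0.66, adjusted p = 0.001). In each nAAC library Spp1 was the largest single part of the sum. The other 4 markers tested were not called. Resident macrophage markers were lower at 2 of 11, near the share over all genes, and higher at 1, under it. None of 10 B and T cell markers passed the test, their summed level being 4.28 to 8.90 CPM in nAAC and 2.15 to 8.10 CPM in Rev-nAAC. Of 8 endothelial markers 1 was higher and none lower, with a median of -0.04.

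Of the 24 load genes followed throughout, 16 were thus lower, 5 higher and 3 (Acta1, Vgll2 and Cpt1b) not called. Beyond the lists, the steepest rise of a gene without overlap was that of Inmt, a methyltransferase, at 0.976, 3.11, 0.797, 1.09 and 1.16 CPM in nAAC and 50.4, 54.4, 48.5, 61.5 and 16.3 CPM in Rev-nAAC (5.02 ± 0.51, adjusted p = 1.1e-08). It overshot: sham averaged 5.33 ± 1.92 CPM (SD, n = 5), and Rev-nAAC was 3.12 higher on the log2 scale (adjusted p = 1.7e-06). Next came Chrna2, a nicotinic receptor subunit (4.36 ± 0.61, adjusted p = 1.2e-06), Lvrn, an aminopeptidase (3.82 ± 0.72, adjusted p = 9.8e-05), and Pbld1 (3.80 ± 0.50, adjusted p = 4.7e-07). Mme, neprilysin, which degrades natriuretic peptides, was at 0.418, 1.46, 0.611, 0.389 and 0.395 CPM in nAAC and 5.25, 3.39, 4.58, 7.35 and 9.84 CPM in Rev-nAAC (3.21 ± 0.42, adjusted p = 5.2e-07), and replicate 5 was the highest of the group. The scaffold gene Ppl, periplakin, rose from 1.31 ± 0.431 to 9.83 ± 2.53 CPM, Klhl33 from 2.18 ± 0.611 to 15 ± 4.36 CPM, and Dixdc1 from 1.86 ± 0.133 to 12.2 ± 6.42 CPM (SD, n = 5; adjusted p = 8.3e-08, 3.1e-06 and 1.4e-06). Snai3 and Sbk3 completed the 12 largest rises, by 3.11 and 2.92.

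Among the 12 largest falls not yet named, Atp6v0a4, a subunit of a proton pump, was at 10.7, 13.2, 11, 12.3 and 8.11 CPM in nAAC and 0.677, 0.744, 1.02, 0.199 and 1.53 CPM in Rev-nAAC (-3.72 ± 0.56, adjusted p = 4.2e-06). Etv4, a transcription factor of the ETS family, was at 6.44, 7.76, 6.69, 7.32 and 5.66 CPM and 0.734, 0.565, 0.283, 0.199 and 1.21 CPM (-3.50 ± 0.43, adjusted p = 2.2e-07), and Lgals3, galectin 3, at 58.2, 38.9, 18.4, 59.6 and 29.8 CPM and 3.98, 3.39, 3.17, 3.82 and 4.8 CPM (-3.42 ± 0.49, adjusted p = 2.3e-06). None of these 3 groups overlapped. Col22a1, a collagen of tissue junctions, fell by 3.59 and Ptx4, a pentraxin, by 3.73 (adjusted p = 1.7e-05 and 0.00014).

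The angiotensin list ran against itself. Ace, the angiotensin converting enzyme, was at 268, 395, 239, 332 and 284 CPM in nAAC and 77.3, 71.8, 83.8, 59.9 and 191 CPM in Rev-nAAC (-1.65 ± 0.27, adjusted p = 1.3e-05), while 6 of the 11 genes tested were higher, including Mme above and Mas1, a receptor of an angiotensin fragment, by 2.06 (adjusted p = 0.0097). Agt, the precursor, was at 0.502, 0.496, 0.877, 0.623 and 0.869 CPM in nAAC and 1.38, 1.64, 1.81, 7.95 and 0.913 CPM in Rev-nAAC (2.02 ± 0.60, adjusted p = 0.0093), and replicate 4, with the adipocyte transcripts, was its highest library. Without Rev-nAAC replicate 4, the number of higher genes in the list was 4. It was also 4 without Rev-nAAC replicate 2 or 3, without nAAC replicate 3 and with sex as a covariate.

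Not every change led back towards sham. Of 20 iron handling genes 5 were higher and 1 lower, with 3 higher without nAAC replicate 2. The transferrin receptor Tfrc, which brings iron into the cell, was at 109, 72.7, 94.5, 57.6 and 152 CPM in nAAC and 47.7, 36.1, 28.7, 23.5 and 65.5 CPM in Rev-nAAC (-1.27 ± 0.27, adjusted p = 0.00047), and sham averaged 432 ± 75.9 CPM (SD, n = 5). It was below sham by 2.15 in nAAC and by 3.42 in Rev-nAAC on the log2 scale. The iron exporter Slc40a1 rose from 7.92 ± 2.71 to 16.9 ± 1.96 CPM (1.09 ± 0.32, adjusted p = 0.008), the sham mean being 17.3 ± 3.13 CPM. Irs1, which relays the insulin signal, was at 74.2, 82.7, 70.3 and 85 CPM in Rev-nAAC replicates 1 to 4 against 33.3 ± 3.19 CPM in nAAC and 35.3 ± 5.79 CPM in sham (SD, n = 5 each), with replicate 5 at 30.6 CPM (1.04 ± 0.17, adjusted p = 1.3e-05). Pnrc1, a nuclear receptor coactivator, showed the same split, at 148, 133, 126 and 160.3 CPM in replicates 1 to 4, 68.4 CPM in replicate 5, 68.7 ± 8.29 CPM in nAAC and 39.3 ± 4.64 CPM in sham. Both nAAC and Rev-nAAC are set against the same sham libraries, which are all male, so sex and group cannot be told apart in the distances from sham of Rev-nAAC. Over all genes, 7294 (47.2%) differed between nAAC and sham and 5500 between Rev-nAAC and sham, and with sex as a covariate the counts were 7220 and 4620.

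Clock genes separated the same libraries. Of 18, 3 were lower and 2 higher, near the share over all genes. There were 2 lower and 0 higher without Rev-nAAC replicate 4 or nAAC replicate 3, and 3 lower and 0 higher without nAAC replicate 4. Without Rev-nAAC replicate 5 the counts were 5 lower and 3 higher. Bmal1, the core activator of the clock, was at 13.9, 10.7, 6.3, 7.52 and 20.4 CPM in nAAC and 31, 32.9, 28.7, 39.6 and 13.5 CPM in Rev-nAAC (1.31 ± 0.45, adjusted p = 0.022), and its output Dbp at 17.2, 26.6, 48.8, 42 and 15.3 CPM and 8.13, 9.67, 9.3, 5.1 and 20.7 CPM (-1.50 ± 0.50, adjusted p = 0.018). Replicate 5 lay among the nAAC values for both genes. The hour at which tissue was taken is not given in the sources used here.

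Other lists had few or mixed calls, to be read beside the 16.0% lower and 16.9% higher over all genes. Of 40 cytosolic ribosomal protein genes 1, Rpl3, was lower (-0.55 ± 0.13, adjusted p = 0.001) and 0 higher, with a median of 0.04. Of 33 genes of the integrated stress and unfolded protein responses 7 were lower and 3 higher, and 17 were lower without replicate 5, against 4 without nAAC replicate 2 or Rev-nAAC replicate 1, 2 or 3. Herpud1 rose from 115 ± 15.8 to 258 ± 68.1 CPM (SD, n = 5; 1.17 ± 0.17, adjusted p = 1.8e-06), whereas the transcription factor Ddit3 fell by 0.61 (adjusted p = 0.013). Of 30 heat shock and proteostasis genes 6 were higher and 6 lower, which became 5 higher and 12 lower without replicate 5 and 3 lower without replicate 3. Oxidative stress genes stood at 9 higher and 4 lower of 29 (2 lower without replicate 2), and immediate early genes at 1 higher and 5 lower of 24 (3 lower without nAAC replicate 4 or Rev-nAAC replicate 2), among them Egr2, which fell from 14 ± 9.2 to 2.02 ± 1.14 CPM (-2.79 ± 0.67, adjusted p = 0.0014). Of 44 growth factor genes 10 were lower, including the insulin-like growth factor Igf1 by 1.15 (adjusted p = 0.00078), and 6 higher. Complement and coagulation genes were 3 lower and 3 higher of 22, with 8 lower and 4 higher without replicate 5 and 3 lower and 1 higher without replicate 4. The call of the adipokine Cfd there rested on replicate 4, at 114 CPM, since it was at 0 in all nAAC libraries and at no more than 0.0565 CPM in the other Rev-nAAC libraries.

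Within the groups, the genes whose level followed Nppa most closely over the 10 libraries were Acot11 (Pearson r = -0.956), Nck1 (-0.943), Slc35f6 (0.939), Pam (0.927), which encodes a peptide-amidating enzyme of secretory granules, Dtna (0.921), Atpif1 (0.915), Atg16l2 (0.914) and Pard3 (-0.910). These 8 were picked as the largest correlations, of either sign, among all genes at 2 CPM or more on average. Their size therefore also reflects the search, and none was tested. They are descriptions over 10 libraries, with group means removed, that share sequencing depth and tissue sampling.

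At the younger ages the same contrast was smaller or similar. At 4 weeks 394 genes (2.55%) differed between Rev-nAAC and nAAC, 272 of them lower in Rev-nAAC (1.76%), at 6 weeks 4002 and at 8 weeks 5083. Nppa differed by -1.69 ± 0.45, -3.27 ± 0.47 and -2.71 ± 0.46 on the log2 scale at 4, 6 and 8 weeks, and Atp2a2 by 0.32 ± 0.14, 0.89 ± 0.14 and 0.91 ± 0.14. Among the 24 load genes, 5 were lower at 4 weeks, 17 lower and 4 higher at 6 weeks, and 16 lower and 5 higher at 8 weeks. The difference at 8 weeks was tested against that at each younger age. At 4 weeks nAAC held 3 female and 2 male libraries and Rev-nAAC 2 and 3. At 6 weeks nAAC held 4 and 1 and Rev-nAAC 2 and 3. Females were thus the larger share in nAAC at both younger ages but in Rev-nAAC at 8 weeks. Age and sex make-up therefore cannot be told apart in these differences. Against 4 weeks it differed for 1222 genes (7.91% of those tested), 626 of them more positive (4.05%) and 596 more negative (3.86%) at 8 weeks. Against 6 weeks it differed for 14 genes (0.0907%), and 1701 had an unadjusted p under 0.05. Both counts became 0 when only the 4 groups of each test were fitted, with 2788 and 1655 genes then at an unadjusted p under 0.05. With sex as a covariate over all groups the counts were 519 and 0.

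With these limits, the gap between Rev-nAAC and nAAC was wider at 8 than at 4 weeks for several matrix genes. Col1a1 differed by -0.54 ± 0.27 at 4 weeks, -1.35 ± 0.28 at 6 weeks and -2.23 ± 0.29 at 8 weeks, a change of -1.69 from 4 to 8 weeks (adjusted p = 0.0096). Col3a1 changed by -1.69 (adjusted p = 0.013), Postn by -2.04 (0.046) and Timp1 by -2.22 (0.026). Of the stress genes, Nppb changed by -1.70 (adjusted p = 0.041) and Gdf15 by -2.37 (0.03), while for Nppa the change of -1.02 did not pass (adjusted p = 0.3). For fatty acid genes 19 of 37 had a larger difference at 8 than at 4 weeks and 0 a smaller one. None of the 24 load genes differed between 6 and 8 weeks.

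The genes with the strongest change from 4 to 8 weeks, by the size rule, included the endothelial adhesion molecule Sele, whose difference went from 2.08 at 4 weeks to -1.92 at 8 weeks (change -4.0, adjusted p = 0.00095). The monocyte chemokines Ccl7, Ccl12 and Ccl2 changed by -3.76, -3.75 and -3.39 (adjusted p = 0.0057, 0.0011 and 0.0043), and at 8 weeks Ccl12 was at 4.13, 2.86, 1.67, 4.44 and 2.0 CPM in nAAC and 0.254, 0.268, 0.311, 0.0285 and 0.825 CPM in Rev-nAAC. In the positive direction stood Sbk3 at 3.59 and Snai3 at 3.01, beside Cfd, Cyp2e1 and Car3, which were high in replicate 4, the library with adipocyte transcripts. Without replicate 4 the 8-week log2 fold changes of Cyp2e1 and Car3 were -0.60 and -1.61. Against 6 weeks, Dbp differed by -3.35 (adjusted p = 0.042), Acsl6 by -2.43 (0.021), Ccnd1 by -1.41 (0.042) and Tpm2 by 1.59 (0.021), calls that were all lost with sex as a covariate.

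**Figure D5:**
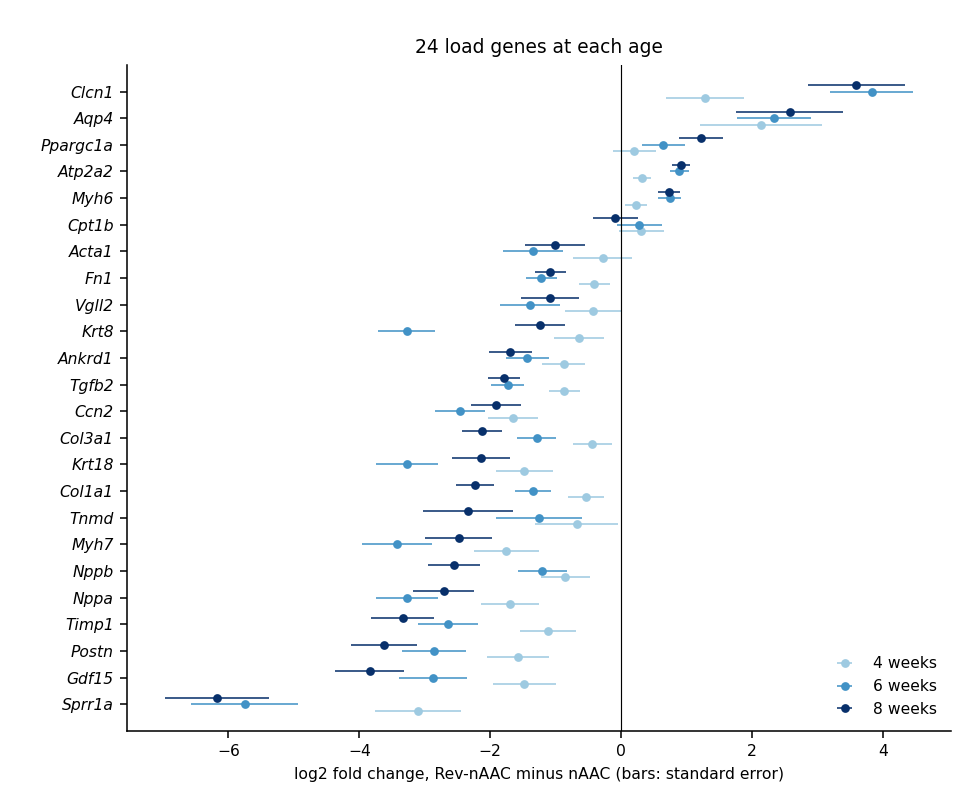
Log2 fold change between Rev-nAAC and nAAC of the 24 load genes at 4, 6 and 8 weeks (5 libraries a group), with standard errors as bars. Col1a1, Col3a1, Postn, Timp1, Nppb and Gdf15 lie farther from 0 at 8 than at 4 weeks, and Krt8 lies farthest at 6 weeks.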

How the data were processed

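RNA from left ventricle was extracted with Trizol and sequenced after library preparation with a Vazyme VAHTS V6 kit, per the labels' protocols; strandedness is not given in the sources used here. Per the submitters' processing notes, fastp 0.20.1, HISAT2 2.1.0, HTSeq 0.11.2 and the GRCm38 (mm10) genome were used. The authors deposited whole-number counts per gene for all 45 libraries in 1 table, with no other normalization. No column was left unused (0).

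Counts were analysed with edgeR 4.0.16 in R 4.3.3: genes were filtered (filterByExpr, count minimum 10, total minimum 15), scaled by TMM and fitted with a robust quasi-likelihood model over all 9 groups, so that the spread is shared. Contrasts were Rev-nAAC minus nAAC at 8 weeks, both against sham, and the difference of this contrast between ages. P-values were adjusted over all 15444 genes by the Benjamini-Hochberg method. Alternatives were DESeq2 1.42.0, limma 3.58.1 (voom), RLE scaling, no filter, a sex covariate, a fit of the compared groups alone, a replicate block and leaving out each library. Fits of female or male libraries alone were added after the data were seen. The pipeline was tested on simulated data.

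Gene lists, and the comparison itself, were chosen with earlier results of these data known. Genes were named by a rule: the 12 largest changes each way among genes past the threshold, at 2 CPM or more in the higher group and without overlap, passing over unnamed gene models, receptor segments and sex-linked genes; the 24 load genes; from each list, 4 called genes ranked by p (2 uncalled ones where none was called); the 5 largest age differences each way; and the 8 genes most correlated with Nppa. Genes outside it were chosen after their values were seen: Casq2, Ccr2, Cd36, Col6a6, Cpt2, Dcn, Ddit3, Eno3, Etfa, Hadha, Hadhb, Hand2, Hcn4, Kcnd2, Kcne4, Ldha, Mas1, Mki67, Myl2, Myl7, Sln, Pdgfra, Pdk4, Pfkm, Ryr2, Slc25a20, Slc2a1, Slc2a4, Spp1, Thbs2 and Tubb2a. Some genes that the rule or a list holds are not reported here; counts over lists and over all genes include them. Promoters came from RefSeq. The 4-week nAAC replicate 1 was grouped by its title, since its treatment tag reads sham.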

Additional observations from a re-analysis of the deposited data

Results flagged for a closer look

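Among the 5 libraries of a group, 35 of 256 gene and group combinations had 1 library far from the other 4 (a gap over 0.71 of the range in CPM, untransformed). The nominal rate is 5%, but these are genes named in the text, some chosen after their values were seen. The 2 rates therefore cannot be compared. Over all genes, in log2 CPM, Rev-nAAC replicate 5 was the far library at 4.66% and the other Rev-nAAC libraries at 0.440 to 2.08% each. Among the 35 combinations, Rev-nAAC replicate 5 was the far library in 19. It was high for Ace (191 CPM), Ccl2 (2.71), Ccl7 (1.33), Ccnd1 (88.3), Col1a1 (127), Col22a1 (2.33), Col6a6 (2.48), Ddit3 (24.8), Gdf15 (7.22) and Ltbp2 (48.6 CPM). It was also high for Map1b (17.9 CPM), Mki67 (7.34), Nppb (452), Postn (167), Tubb2a (51.4), Tubb3 (1.68) and Vgll2 (6.25 CPM), and low for Inmt (16.3 CPM) and Irs1 (30.6 CPM). This library is the only male one of its group, and sex and library cannot be told apart.

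Rev-nAAC replicate 4, with the adipocyte and atrial transcripts, was far above the others for Acot1 (64.4 CPM), Agt (7.95), Herpud1 (378), Myl7 (19.3), Slc25a20 (253) and Spp1 (6.21 CPM), and below them for Kcnd2 (7.52 CPM). Replicate 2 was high for Sprr1a (0.565 CPM). In nAAC, 8 combinations stood out. Replicate 4 was high for Cthrc1 (6.72 CPM) and Egr2 (30.4 CPM) and low for Irs1 (27.7 CPM). Replicate 2 was high for Inmt (3.11 CPM), Mme (1.46 CPM) and Slc40a1 (12.7 CPM), replicate 1 for Pfkp (166 CPM) and replicate 5 for Myl7 (22 CPM).

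The difference between Rev-nAAC and nAAC changed from 4 to 8 weeks for 1222 genes. On the log2 scale the change was 9.24 for Car3, -3.75 for Ccl12, -3.39 for Ccl2, -3.76 for Ccl7 and 9.19 for Cyp2e1. For Cfd the fitted change was 17.88, a value that depends on the prior count, since all nAAC libraries were at 0 at 8 weeks. It was -1.69 for Col1a1, -1.69 for Col3a1, -2.37 for Gdf15, -1.70 for Nppb, -2.04 for Postn and -2.22 for Timp1. It was 3.59 for Sbk3, -4.0 for Sele, -3.42 for Slfn4 and 3.01 for Snai3. From 6 to 8 weeks it changed for 14 genes. Among them were Acsl6 (-2.43), Ccnd1 (-1.41), Ctsl (0.85), Dbp (-3.35), Egfr (1.29), Irs1 (1.28), Mal (-1.36), Mid1ip1 (-1.06), Pnrc1 (0.95) and Tpm2 (1.59).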

How the results depend on the processing

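The count of 5083 genes between Rev-nAAC and nAAC ran from 3769 to 6846 over the alternatives in both sexes (DESeq2 5322, voom 6846, RLE 5060, no filter 4481, sex covariate 4406, the 2 groups alone 4616) and from 4140 to 5747 on leaving out 1 library. Female libraries alone, a fit added after seeing the data like the next, gave 3825 genes. Male libraries alone, with the lone Rev-nAAC library assumed to vary like the other groups, gave 123. The counts against sham ran on leaving out 1 library from 4857 to 5919 for Rev-nAAC and from 6601 to 7251 for nAAC, and the difference in mitochondrial share from 2.84 to 3.65 percentage points (exact permutation p = 0.0159 each, the smallest that 4 against 5 allows).

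The age differences depended on the processing. Against 4 weeks the count of 1222 became 718 without the filter, 519 with the sex covariate, 0 for the 4 groups alone (2788 at an unadjusted p under 0.05) and 474 to 2458 on leaving out 1 library, the lowest being without Rev-nAAC replicate 3 of 4 weeks and the highest without Rev-nAAC replicate 5 of 8 weeks; it was 793 without nAAC replicate 4, and 747 and 552 without Rev-nAAC replicates 2 and 4, all of 8 weeks. Against 6 weeks the count of 14 became 87 with DESeq2, 676 with voom, 5 without the filter, 0 with the sex covariate (1255 at an unadjusted p under 0.05), 0 for the 4 groups alone (1655) and 0 to 490 on leaving out 1 library, the highest without Rev-nAAC replicate 5 of 8 weeks. It was 0 to 6 without any other Rev-nAAC or any of nAAC replicates 1 to 4 of 8 weeks, nAAC replicates 2, 3 and 4 of 6 weeks or Rev-nAAC replicates 1, 3 and 4 of 6 weeks. The cause was not tested.

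With the replicate number as a block and the compared groups alone, 3769 genes differed between Rev-nAAC and nAAC, and 0 between ages (2709 against 4 weeks and 1483 against 6 weeks at an unadjusted p under 0.05). After group means were removed, libraries of the same number correlated between the groups at -0.20 to 0.05. For no number was this the best value of both libraries. No pairing by number was thus seen in these values, and pairing by litter or batch was not tested.

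Some single genes changed sign. On leaving out 1 library Car3 ran from -1.61 to 6.19 and Cyp2e1 from -0.60 to 6.86, the lowest without Rev-nAAC replicate 4 for both. Mal ran from -0.24 to 0.0312 and Cpt1b, not called, from -0.28 to 0.17. With voom Car3 was -1.05, with the sex covariate Mal was 0.0043, and in female libraries Cpt1b was 0.18. In male libraries alone the values were Acta1 0.0298, Amotl2 -0.39, Ctsl -0.0467, Ier5 0.0129, Cfd 0, Dbp 0.0764, Bmal1 -0.14, Ccl7 0.13, Ccl2 0.27, Cyp2e1 -1.23, Car3 -0.74, Mal 0.26, Mid1ip1 0.70 and Irs1 -0.19. Depth limits genes such as Aqp4 in nAAC, whose libraries held 0 to 0.11 CPM, a few counts each.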
